A study of Homo sapiens with 9 samples.

Results

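The genes described here encode the core of TGF-β signaling: 3 ligands (TGFB1, TGFB2 and TGFB3), 3 receptors (TGFBR1, TGFBR2 and TGFBR3) and 4 SMADs (SMAD2, SMAD3, SMAD4 and SMAD7). They were chosen by name, are 10 of the 59453 gene names in the deposited count table, and were followed across all 9 libraries. The cells were MDA-MB-231, an established human triple-negative breast cancer line, sequenced by RNA-Seq in 3 groups of 3 libraries: untreated cells, cells treated with TEPA for 8 h and cells treated with TEPA for 24 h. Cells of every group were grown in T75 flasks in DMEM with serum, and a single untreated group served both times. That group cannot match both times in culture. Differences between the times, and from untreated cells at either time, may therefore also hold time in culture, which cannot be told apart from TEPA exposure. TEPA is a copper chelator, for which the study's text and its reagent entry give different chemical names. Its concentration is 8 mM in the labels and 4 mM in the RNA-Seq methods. The groups are replicates of a single line in culture, with no stroma or immune cells, and nothing states that the replicates were separate cultures, so p-values measure only the spread between these libraries.

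In the canonical pathway, a TGF-β dimer is released from a latent complex and bound by TGFBR2, with the coreceptor TGFBR3 (betaglycan) presenting the ligand, TGF-β2 above all. TGFBR2 then phosphorylates TGFBR1, which phosphorylates SMAD2 and SMAD3, and these enter the nucleus with SMAD4 to regulate target genes. SMAD7 is induced by the pathway and blocks it by occupying TGFBR1 and recruiting ubiquitin ligases to it. In breast cancer cells the pathway is known for driving EMT and invasion. RNA-Seq gives transcript levels, not phosphorylation, secretion or location of these proteins.

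SMAD3 and SMAD4 recognise the short sequence CAGAC and the palindrome GTCTAGAC, known as the SMAD-binding element. The palindrome and CAGAC, which reads as GTCTG on the opposite strand, were searched on both strands in RefSeq promoter windows (GRCh38.p14, 250 bases before to 50 bases after a transcript start). The palindrome itself contains neither strand's reading of CAGAC. Among all 35116 windows, 45.3% held CAGAC and 0.202% held GTCTAGAC, so that CAGAC alone is common. All 10 genes had at least 1 window, 26 in all. CAGAC was found in 11 of the 26 windows, of 5 genes (TGFB2, TGFB3, TGFBR1, SMAD3 and SMAD7), and GTCTAGAC in none. The 250 bases upstream of the outermost start are shown for SMAD7, which rose most of the 10 at 8 h, and for TGFB2, the ligand that rose at 24 h. They were selected after their values were seen, and capitals mark CAGAC on either strand. They lie on the minus strand at chr18:48950966-48951215 and on the plus strand at chr1:218345086-218345335.
SMAD7: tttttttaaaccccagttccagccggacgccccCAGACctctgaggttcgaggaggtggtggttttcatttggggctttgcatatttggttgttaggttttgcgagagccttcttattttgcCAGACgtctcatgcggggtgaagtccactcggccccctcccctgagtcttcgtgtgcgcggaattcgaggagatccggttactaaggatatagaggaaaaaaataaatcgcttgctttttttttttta
TGFB2: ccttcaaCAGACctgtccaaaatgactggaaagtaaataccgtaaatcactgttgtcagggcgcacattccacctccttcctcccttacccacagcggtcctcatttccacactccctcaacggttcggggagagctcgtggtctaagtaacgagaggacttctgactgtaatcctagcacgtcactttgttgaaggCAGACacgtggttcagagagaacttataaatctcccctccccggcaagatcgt
Each stretch held 2 copies, as did the full window of 300 bases around it. Of all windows, 13.1% held 2 or more. TGFB3, which passed no test, also had 2 copies in its outer window. Windows of TGFBR1 held up to 2 copies and 1 window of SMAD3 held 4. The windows of TGFB1, TGFBR2, TGFBR3, SMAD2 and SMAD4 held none. These matches describe letters only.

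The libraries held 34633755 to 49342659 counts. VIM, CD44, EGFR and the other 5 markers of MDA-MB-231 were abundant in every library. Their summed levels were 7008 to 8765 CPM (counts per 1000000 of the TMM-scaled library size). Of these 8, 5 were called higher and 3 lower at 8 h in edgeR, and 1 higher and 5 lower at 24 h. Of all genes tested, 25.2% were higher and 24.5% lower at 8 h, and 25.7% and 26.8% at 24 h. PGR was at 0 throughout. Not every marker listed as absent or low was near 0: ERBB2 ran from 51.9 to 87.1 CPM and GATA3 from 10.2 to 14.8 CPM. Of the 5 of these that were tested, 3 were called at 24 h in edgeR. ERBB2 was lower (log2 fold change -0.62, adjusted p = 5.2e-08) and GATA3 higher (0.42, adjusted p = 0.00017). CDH1 was also higher (2.33, adjusted p = 1.1e-06), from a mean of 0.62 CPM in untreated cells to 3.19 CPM. Of 10 markers of other cell types, CD3E and HBB were at 0 in every library, and PTPRC did not exceed 5 counts. Their summed level was 31.8 to 45.7 CPM in untreated cells, 25.7 to 30.4 at 8 h and 100.4 to 108 at 24 h. Most of it was PDGFRB, a receptor of pericytes and fibroblasts, whose mean was 34.2 CPM without TEPA and 27.1 and 94.5 CPM after 8 h and 24 h. The endothelial marker PECAM1 was at 3.59, 1.06 and 8.13 CPM. It was called lower at 8 h (log2 fold change -1.76, adjusted p = 8.9e-07) and higher at 24 h (1.18, adjusted p = 1.9e-06). TGFBR1 had these directions too, and how many of all genes had them was not counted. The endothelial marker VWF did not exceed 3 counts, and the fibroblast markers DCN and LUM stayed at or below 13. The share of counts from mitochondrially encoded genes was 1.79 to 2.91% in untreated cells, 3.61 to 4.02% at 8 h and 1.89 to 2.02% at 24 h. With those genes left out of the fit, the calls of the 10 genes at 8 h, at 24 h and between the times did not change. The part of PDGFRB and PECAM1 in the results at 8 h and 24 h was not tested. Among replicates, untreated 1 and 2 differed most beyond counting noise (chi-square per degree of freedom 20.6), followed by untreated 1 and 3 (8.34), where all other pairs gave 2.36 to 7.40. Without untreated replicate 1, the called log2 fold changes at 8 h were -0.25 for TGFBR1, -0.39 for TGFBR2, -0.59 for TGFBR3, -0.26 for SMAD2 and 0.76 for SMAD7. At 24 h they were -0.29 for TGFB1, 0.58 for TGFB2, 0.67 for TGFBR1, -0.30 for TGFBR2, 0.33 for SMAD3 and 0.27 for SMAD4, all still called, while SMAD7 at 0.17 was not.

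All 10 genes passed the expression filter, and 16556 genes were tested together with edgeR's quasi-likelihood test (Benjamini-Hochberg adjusted p, called under 0.05). At 8 h, 4 of the 10 were lower (TGFBR1, TGFBR2, TGFBR3 and SMAD2) and 1 was higher (SMAD7). Among all genes tested 24.5% were lower and 25.2% were higher. At 24 h, 2 were lower (TGFB1 and TGFBR2) and 5 higher (TGFB2, TGFBR1, SMAD3, SMAD4 and SMAD7), against 26.8% and 25.7% of all genes. Between 8 h and 24 h, 6 rose and 2 fell, against 26.0% higher and 28.8% lower among all genes. The median log2 fold change of the 10 was -0.13 at 8 h, 0.13 at 24 h and 0.34 between the times, where that of all genes was 0.00, 0.00 and -0.02. Without regard to sign, the medians were 0.22, 0.27 and 0.35 for the 10, against 0.22, 0.24 and 0.25 for all genes. Differences were of moderate size: those past the test and beyond a log2 fold change of 0.5 numbered 2, 2 and 4 of the 10, against 17.8%, 18.7% and 21.2% of all genes. Since each library holds RNA pooled from many cells, fewer cells with a transcript and less of it per cell cannot be told apart. CPM are shares of each library, so they do not show a change in total RNA per cell.

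**Figure D1:**
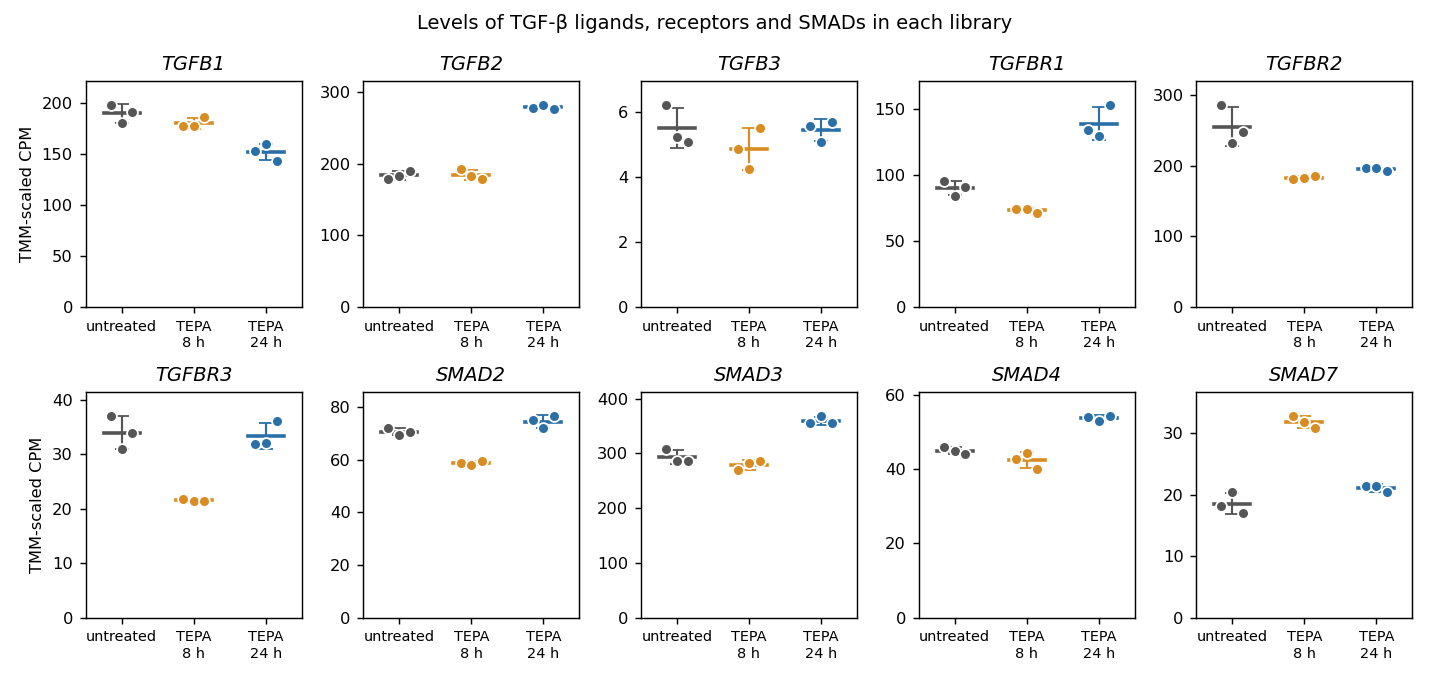
Levels of the 10 genes (TMM-scaled CPM, each panel on its own linear axis from 0) in each of the 9 libraries, with group mean (bar) and SD (whiskers, n = 3); the 3 points of a group are replicates 1 to 3 from left to right. TGFB2, TGFBR1, SMAD3 and SMAD4 were highest at 24 h, the 3 receptors had their lowest means at 8 h, and SMAD7 was highest at 8 h, at 30.9 to 32.8 CPM.

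The ligands diverged at 24 h. TGFB2 (chr1:218345336-218444619, plus strand, hg38) was at 179.1, 182.6 and 190.5 CPM in the untreated libraries. It was at 192.3, 183.3 and 178.8 CPM at 8 h and at 277.6, 282.0 and 277.1 CPM at 24 h. The 24 h libraries all stood above the other 6, which overlapped. The fitted log2 fold change at 24 h was 0.60 (SE 0.038, adjusted p = 4.3e-09), a 51.5% increase. At 8 h it was 0.01 (95% confidence interval -0.08 to 0.09). Of the exonic bases of TGFB2, 22.7% are shared on the same strand with TGFB2-OT1, and reads from there cannot be assigned to either gene.

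TGFB1 (chr19:41301587-41353922, minus strand), the ligand most often studied in cancer, moved the other way. Its level was 197.7, 179.9 and 191.6 CPM in untreated cells, 176.9, 177.4 and 186.3 CPM at 8 h, and 153.3, 159.5 and 143.3 CPM at 24 h. The 24 h libraries lay below all others, with a log2 fold change of -0.32 (SE 0.046, adjusted p = 2.7e-05) and a mean of 152.0 ± 8.20 CPM against 189.7 ± 9.05 (SD, n = 3). At 8 h the value was -0.07 (interval -0.17 to 0.02, adjusted p = 0.19), and the groups overlapped. Without untreated replicate 2 it was -0.12 and passed the test (adjusted p = 0.046).

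TGFB3 (chr14:75958097-75983011, minus strand) was the scarcest of the 10, with 162 to 284 counts a library. It was at 6.21, 5.23 and 5.07 CPM in untreated cells, 4.87, 4.24 and 5.52 CPM at 8 h and 5.57, 5.07 and 5.70 CPM at 24 h. The groups overlapped, and no comparison passed the test. The interval of its log2 fold change reached from -0.42 to 0.07 at 8 h and from -0.25 to 0.23 at 24 h.

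The receptors were lower together at 8 h and then parted. TGFBR1 (chr9:99104038-99154192, plus strand), the type I kinase that phosphorylates SMAD2 and SMAD3, was at 95.1, 84.0 and 90.4 CPM in untreated cells. It fell to 74.4, 73.9 and 71.4 CPM at 8 h and reached 134.0, 129.2 and 152.5 CPM at 24 h. The 3 groups did not overlap, with 8 h lowest and 24 h highest. The log2 fold change was -0.29 (SE 0.059, adjusted p = 0.00064) at 8 h and 0.62 (SE 0.057, adjusted p = 2.5e-07) at 24 h, and 0.92 (SE 0.058, adjusted p = 4.7e-09) from 8 h to 24 h. That last change, an 89.0% increase, was larger in size than that of 90.0% of the genes tested.

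TGFBR2 (chr3:30606601-30694142, plus strand), the type II receptor that binds the ligand, stayed lower at both times. Its untreated libraries stood at 285.4, 232.6 and 246.9 CPM, the widest spread of any group of this gene. At 8 h it was at 180.6, 182.8 and 185.3 CPM, and at 24 h at 196.0, 196.6 and 192.0 CPM. Every TEPA library lay below every untreated one, with log2 fold changes of -0.48 (SE 0.056, adjusted p = 4.2e-06) and -0.39 (SE 0.055, adjusted p = 2.6e-05). The 24 h libraries also lay above the 8 h ones without overlap, but the difference of 0.09 (interval -0.03 to 0.21, adjusted p = 0.18) did not pass the test. It passed when only those 2 groups were fitted (0.12, adjusted p = 0.0034) and without untreated replicate 1 (0.09, adjusted p = 0.023).

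TGFBR3 (chr1:91680343-91906335, minus strand), the coreceptor, was lower at 8 h alone among the comparisons with untreated cells. It was at 37.1, 31.0 and 33.9 CPM in untreated cells, 21.8, 21.4 and 21.5 CPM at 8 h and 31.8, 32.1 and 36.1 CPM at 24 h. The 8 h libraries lay below the other 6, which overlapped. The log2 fold change was -0.65 (SE 0.068, adjusted p = 1.3e-06) at 8 h, the lowest of the 10, and -0.03 (interval -0.17 to 0.11) at 24 h. From 8 h to 24 h it rose by 0.63 (SE 0.068, adjusted p = 1.3e-06).

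**Figure D2:**
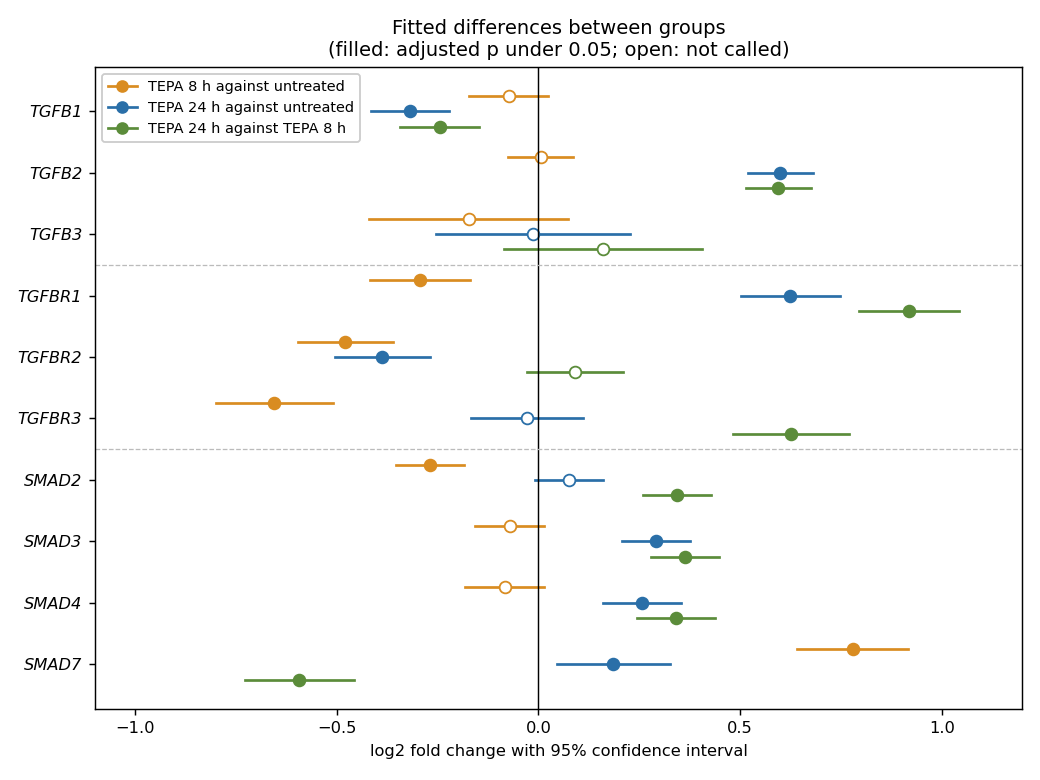
Fitted log2 fold changes (x axis) of the 10 genes (y axis) with 95% confidence intervals, from edgeR over 16556 genes; colors are the 3 comparisons, filled circles are calls at an adjusted p under 0.05 and open circles are not called. TGFBR1 ran from -0.29 at 8 h to 0.62 at 24 h, whereas SMAD7 ran from 0.78 to 0.19.

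Of the receptor-regulated SMADs, SMAD2 was called lower at 8 h and SMAD3 higher at 24 h. SMAD2 (chr18:47808957-47931146, minus strand) was at 71.9, 69.3 and 70.6 CPM in untreated cells, 58.7, 57.9 and 59.3 CPM at 8 h and 74.9, 71.8 and 76.5 CPM at 24 h. The 8 h libraries lay below all others, and the untreated and 24 h libraries overlapped. The log2 fold change was -0.27 (SE 0.040, adjusted p = 4.4e-05) at 8 h and 0.08 (interval -0.01 to 0.16, adjusted p = 0.12) at 24 h. With upper-quartile scaling the 24 h value was 0.10 and passed the test (adjusted p = 0.039).

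SMAD3 (chr15:67063763-67195173, plus strand) was at 308.8, 285.3 and 286.8 CPM in untreated cells, 269.4, 281.9 and 286.8 CPM at 8 h and 354.7, 368.2 and 354.8 CPM at 24 h. The 24 h libraries stood above the other 6. Its log2 fold change was -0.07 (interval -0.16 to 0.01, adjusted p = 0.15) at 8 h and 0.29 (SE 0.040, adjusted p = 1.7e-05) at 24 h.

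SMAD4 (chr18:51028528-51085045, plus strand), the common partner of both, had the same order of groups as SMAD3. It was at 45.8, 45.0 and 44.05 CPM in untreated cells, 42.8, 44.3 and 40.1 CPM at 8 h and 54.0, 52.8 and 54.3 CPM at 24 h. The untreated and 8 h libraries overlapped, with a log2 fold change of -0.08 (interval -0.18 to 0.01, adjusted p = 0.14). At 24 h it was 0.26 (SE 0.045, adjusted p = 0.00018), with no overlap. Of the exonic bases of SMAD4, 4.93% are shared with a readthrough gene on the same strand.

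SMAD7 (chr18:48919853-48950965, minus strand), the inhibitory SMAD whose upstream sequence is printed above, was the single gene of the 10 to peak at 8 h. It was at 18.1, 20.5 and 17.1 CPM in untreated cells, 32.8, 31.9 and 30.9 CPM at 8 h and 21.5, 21.5 and 20.4 CPM at 24 h. The 8 h libraries stood above all others, and the 24 h and untreated libraries overlapped. The log2 fold change was 0.78 (SE 0.065, adjusted p = 1.4e-07) at 8 h, a 71.6% increase, and 0.19 (SE 0.066, adjusted p = 0.027) at 24 h. The later call did not hold without untreated replicate 1 (0.17, adjusted p = 0.060), untreated replicate 3 (0.13, adjusted p = 0.15), TEPA 24 h replicate 1 (0.17, adjusted p = 0.088) or TEPA 24 h replicate 2 (0.17, adjusted p = 0.070). The value at 8 h stayed between 0.71 and 0.85 with any 1 library left out.

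The 24 h libraries were compared directly with the 8 h libraries. Since both times share the untreated group, this is also the difference between their contrasts with untreated cells. With no untreated group for each time, it cannot tell TEPA exposure from time in culture. TGFB2 (0.59), TGFBR1 (0.92), TGFBR3 (0.63), SMAD2 (0.34), SMAD3 (0.36) and SMAD4 (0.34) were higher at 24 h, and TGFB1 (-0.24) and SMAD7 (-0.59) were lower. Adjusted p in edgeR was at most 0.00031 among these 8. TGFB3 (0.16, interval -0.09 to 0.41) and TGFBR2 were not called. Groups did not overlap for 5 of the 10 genes at 8 h, 6 at 24 h and 9 between the times. The shares of all genes without overlap were 57.8%, 57.2% and 62.0%.

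The proportions of partner genes were followed within each library, where library size cancels. Count ratios are not corrected for gene length and are compared only between libraries. TGFB2 and TGFB1 had near equal counts in untreated cells (ratio 0.906, 1.02 and 0.994) and at 8 h (1.09, 1.03 and 0.960), and TGFB2 had more at 24 h (1.81, 1.77 and 1.93). The ratio of TGFBR2 to TGFBR1 was 3.001, 2.77 and 2.73 in untreated cells, 2.43, 2.47 and 2.60 at 8 h and 1.46, 1.52 and 1.26 at 24 h. The ratio was lower at 8 h and lowest at 24 h, with no overlap between any 2 groups. The ratio of SMAD3 to SMAD2 was 4.06 to 4.30 in untreated cells, 4.59 to 4.87 at 8 h and 4.63 to 5.13 at 24 h, where the 2 TEPA groups overlapped. The ratio of SMAD7 to SMAD3 was 0.0587 to 0.0717 in untreated cells, 0.108 to 0.122 at 8 h and 0.0574 to 0.0606 at 24 h. It was higher at 8 h than in either other group, which overlapped each other. Over these 12 comparisons the exact 2-sided permutation test gave p = 0.1 (adjusted p = 0.13) wherever groups did not overlap, the smallest that 3 against 3 libraries allow.

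**Figure D3:**
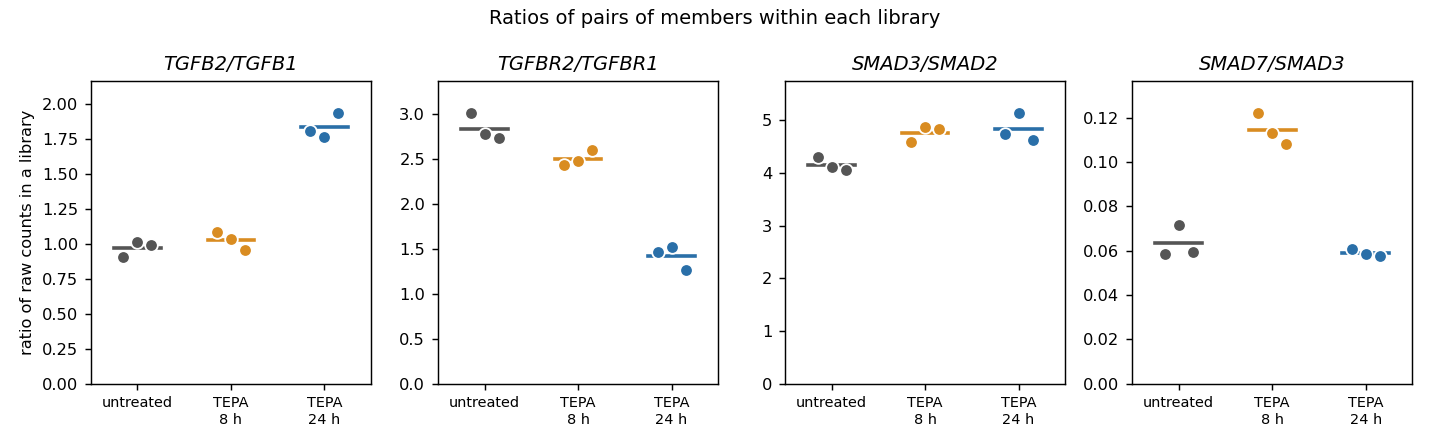
Ratio of raw counts of 4 pairs of genes (y axis, linear from 0) in each of the 9 libraries, with the group mean as a bar; points are replicates 1 to 3 from left to right. The TGFB2 to TGFB1 ratio was 1.77 to 1.93 at 24 h and at most 1.09 elsewhere, and the TGFBR2 to TGFBR1 ratio was lowest at 24 h.

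Levels of different genes were compared per length, as CPM per kb of the MANE Select transcript averaged over the 9 libraries. TGFB1 (62.6), SMAD3 (48.1), TGFBR2 (46.6) and TGFB2 (36.8) were the most abundant. TGFBR1 (15.5) was lower, and SMAD7 (7.14), SMAD4 (5.36), TGFBR3 (4.67), SMAD2 (1.96) and TGFB3 (1.54) were lower still. In untreated cells the order began with TGFB1 (68.3 ± 3.26, SD, n = 3), TGFBR2 (56.3 ± 6.03), SMAD3 (45.4 ± 2.03) and TGFB2 (31.4 ± 0.996). At 24 h SMAD3 (55.6 ± 1.205) and TGFB1 (54.7 ± 2.95) differed by less than their spread, followed by TGFB2 (47.5 ± 0.461) and TGFBR2 (43.0 ± 0.550). The value of SMAD2 rests on a transcript of 34626 bases, and a shorter form in use would raise it. That of TGFB2 uses its full length, although reads from 22.7% of its exonic bases cannot be assigned. It may be too low, so the place of TGFB2 among the most abundant genes is uncertain, also at 24 h. With the union of all exons as length, TGFB2 (35.7) passed SMAD3 (31.0) and TGFBR2 (30.8), and TGFBR3 (3.45) passed SMAD4 (2.40).

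Other genes of the pathway were described from 5 lists, with the same test. Over all genes tested, 25.2% were higher and 24.5% lower at 8 h, 25.7% and 26.8% at 24 h, with median log2 fold changes of 0.00 at both times. Of 13 genes of TGF-β latency and activation, 9 were tested. At 8 h 4 were higher and 4 lower (median log2 fold change -0.28), and at 24 h 3 were higher and 1 lower (median 0.06). THBS1, an activator of latent TGF-β, rose by 0.85 (SE 0.060, adjusted p = 3.2e-08) at 8 h and 0.51 at 24 h, from 580 ± 65.2 to 1044 ± 14.5 and 826 ± 29.5 CPM (SD, n = 3). ITGAV, the αv integrin subunit that binds the latent complex, went down at 8 h (-0.38, adjusted p = 3.4e-05) and was above untreated cells at 24 h (0.35, adjusted p = 5.5e-05). TGFBR1 had the same directions, for which no share of all genes was counted. LTBP1, which stores the latent complex in the matrix, decreased by 8 h (-0.35, adjusted p = 2.8e-05) and was lower still against untreated cells by 24 h (-0.54, adjusted p = 2.4e-07).

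Of 15 activin, BMP and related ligands, receptors and antagonists, 14 were tested. At 8 h 4 were higher and 2 lower (median 0.01), and at 24 h 5 were higher and 6 lower (median -0.15). INHBB, the activin B subunit, decreased by 8 h (-1.002, adjusted p = 1.1e-08) and remained below untreated cells by 24 h (-0.77, adjusted p = 6.9e-08). The activin antagonist FSTL3 was higher at 8 h (0.53, adjusted p = 3.6e-07) and lower at 24 h (-0.54, adjusted p = 2.5e-07). ACVR2B, a type II activin receptor, was higher at 24 h (0.53, adjusted p = 4.6e-06).

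All 23 of the other SMADs and SMAD regulators were tested. At 8 h 11 were higher and 3 lower (median 0.06), and at 24 h 8 were higher and 8 lower (median 0.01). SKIL, a SMAD corepressor, was highest of the list at 8 h (0.64, adjusted p = 7.5e-05), when SMAD7 was also higher. SMAD6, the inhibitory SMAD of BMP signaling, rose at 8 h (0.40, adjusted p = 0.00063) and further at 24 h (1.14, adjusted p = 1.1e-08), to 97.996 ± 3.71 CPM from 44.5 ± 7.32. The 2 inhibitory SMADs therefore peaked at different times, as SMAD6 rose by 0.74 (adjusted p = 1.0e-06) from 8 h to 24 h while SMAD7 fell by 0.59. SMAD1, a BMP-regulated SMAD, was lower at both times (-0.65 and -0.65, adjusted p = 0.00016 and 0.00012). Of 13 SMAD partners 12 were tested, and 7 were higher and 0 lower at 8 h (median 0.22), and 2 were higher and 3 lower at 24 h (median -0.03). Of all genes, 25.2% were higher and 24.5% lower at 8 h, and 25.7% and 26.8% at 24 h. CREBBP, a coactivator, was higher at 8 h (0.35, adjusted p = 0.00031), SP1 was higher at 24 h (0.28, adjusted p = 1.2e-05), and E2F5 was lower at 24 h (-0.59, adjusted p = 3.2e-06).

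Of 30 known direct targets of TGF-β signaling, 28 were tested. The list includes SMAD7 and shares THBS1, SKIL and others with the lists above. At 8 h 15 were higher and 7 lower (median 0.14), and at 24 h 9 were higher and 11 lower (median -0.01). From 8 h to 24 h 5 were higher and 16 lower (median -0.31), where 26.0% of all genes were higher and 28.8% lower (median -0.02). COL1A1, the collagen I chain, rose at 8 h by 1.25 (SE 0.057, adjusted p = 5.1e-10) and was 0.40 above untreated cells at 24 h. ANGPTL4, a secreted lipase inhibitor, decreased by 8 h (-0.53, adjusted p = 0.0028) and stood further below untreated cells after 24 h (-1.16, adjusted p = 2.5e-06). JUNB, an AP-1 subunit, rose at 24 h (0.88, adjusted p = 1.7e-06). Calls among the targets went in both directions at both times.

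**Figure D4:**
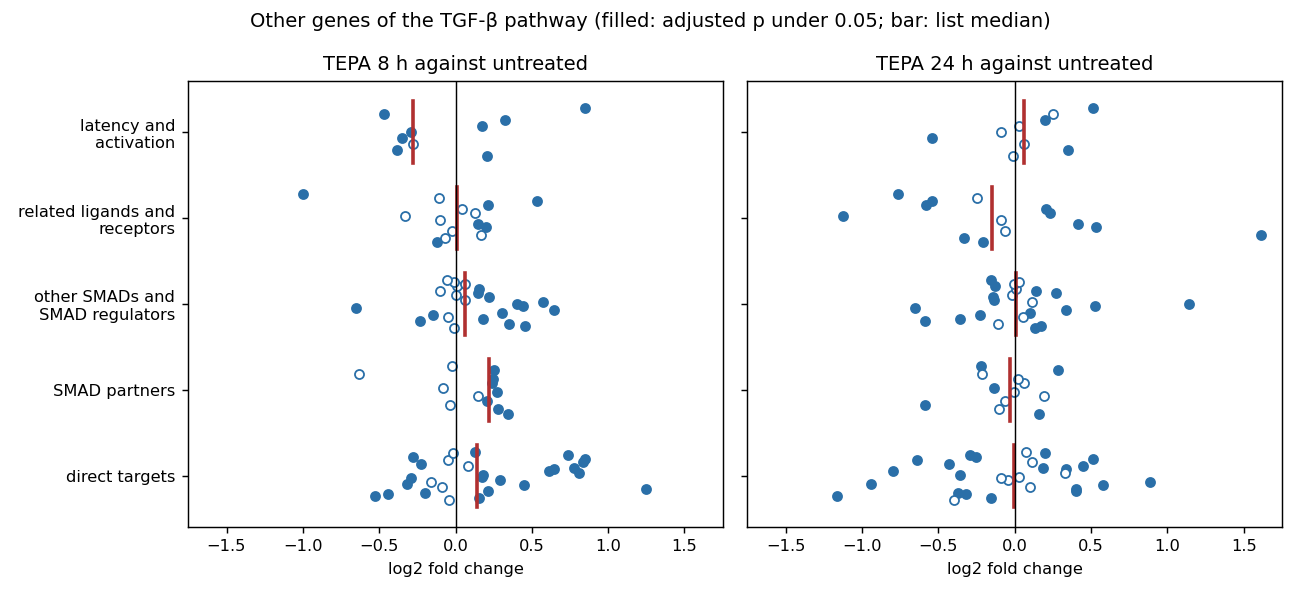
Log2 fold changes (x axis) of the tested genes in 5 lists of the TGF-β pathway (y axis, 1 circle a gene) at 8 h and 24 h of TEPA against untreated cells; filled circles passed an adjusted p under 0.05 and red bars are list medians. SMAD partners had a median of 0.22 at 8 h and -0.03 at 24 h, against 0.00 for all genes at both times, and direct targets spread to both sides at both times.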

How the data were processed

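RNA-Seq of 9 MDA-MB-231 libraries was used, grouped by the treatment label. Per the labels and methods, the authors prepared stranded mRNA libraries, sequenced 100 bp read pairs, checked them with FastQC, aligned them to hg38 with HISAT2 and counted them over exons by gene name with featureCounts (Ensembl 103, strand used). Versions are not given in the sources used here. The deposited values are raw counts of 59453 gene names, without normalization.

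Genes were kept by filterByExpr (minimum count 10) in edgeR 4.0.16 (R 4.3.3), scaled by TMM and fitted over all 9 libraries with the quasi-likelihood test. Benjamini-Hochberg adjustment covered all 16556 genes, and SE was derived as |log2 fold change| over the root of the F statistic. DESeq2 1.42.0, other scalings, filters and library subsets were alternatives. The procedure was tested on simulated counts: for 8 h, 83 of 100 genes changed by 0.5 and 96 of 100 changed by 1 (log2) were called in the right direction, among 13124 genes. Of 12924 unchanged genes, 13 were called. Far fewer genes were changed there than were called in the data, and counts were drawn from the fitted spread. The simulation therefore cannot show how the test does when so many genes change or when replicates are not independent. The 10 genes and the lists were chosen with earlier results of these data known. Pathway genes named are the largest increase and decrease per list and time among those called, with a mean of at least 100 counts. The study's own DESeq2 results were not used. Gene positions and lengths are from GENCODE 44 on hg38, a later release than the one counted.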

Additional observations from a re-analysis of the deposited data

Results flagged for a closer look

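Levels at 8 h and at 24 h of TEPA differed for 8 of the 10 genes by the direct test of 24 h against 8 h (edgeR, adjusted p under 0.05). By that test 26.0% of all genes were higher and 28.8% lower at 24 h. As a single untreated group served both times, TEPA exposure and time in culture cannot be told apart here. The log2 difference was 0.92 for TGFBR1, 0.63 for TGFBR3, 0.59 for TGFB2, 0.36 for SMAD3, 0.34 for SMAD2 and 0.34 for SMAD4, all higher at 24 h. It was -0.24 for TGFB1 and -0.59 for SMAD7, both lower at 24 h. TGFBR1 was called in opposite directions at the 2 times, lower at 8 h and higher at 24 h. With any 1 library left out, all 8 differences kept their direction and passed the test.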

How the results depend on the processing

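Over 510 values (30 fold changes under 17 alternatives, set with earlier results known), 502 kept their direction where called and their side of the threshold, 4 lost a call, 4 gained one and 0 reversed. The 4 lost calls were all SMAD7 at 24 h with 1 library left out, and the 4 gained were SMAD2 at 24 h, TGFB1 at 8 h and TGFBR2 between the times, in the last case under 2 alternatives. Requiring a log2 fold change beyond 0.5 left 2, 2 and 4 of the genes called at 8 h, at 24 h and between the times, against 5, 7 and 8, and 2943, 3095 and 3505 of all genes, against 8216, 8688 and 9079. Replicate numbers showed no sign of pairing the libraries. Same-numbered libraries of different groups correlated by -0.127 to 0.133 in their deviations, and different-numbered ones by -0.242 to 0.203. This cannot show whether the cultures were paired. A fit with the replicate block called 5, 7 and 8 of the genes, and 7779, 8355 and 8758 of all genes, and changed no call of the 10. Of 72 differences in ratios with 1 library left out, 70 kept their sign. The 2 others were SMAD3 to SMAD2 between the times, 0.02 on the log2 scale over all libraries, which was -0.0077 without TEPA 8 h replicate 1 and -0.024 without TEPA 24 h replicate 2. TGFB3, with 162 to 284 counts a library, had standard errors of 0.113 to 0.116.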
